A study of Mus musculus with 9 samples.

Results

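The 10 imprinted growth regulators H19, Meg3, Rian, Dlk1, Cdkn1c, Peg3, Plagl1, Grb10, Mest and Ndn, were followed through osteoblast differentiation. These genes were taken by name from the tables of CPM and RPKM, as 10 of the 40548 genes listed, with no filter on their values. The names were chosen with earlier results of these data known. RNA-seq was performed on calvarial cells, which are bone-forming progenitors released from the skull bones of newborn C57BL/6 mice (postnatal day 2-3 by the sample records). Cells were collected without differentiation (day 0) or after 4 or 7 days in mineralization medium, which supplies ascorbic acid and β-glycerol phosphate, with 3 libraries per stage and 9 in all. The sample records name no deletion, transgene or drug, and the cells were a mixed primary culture grown to confluency. Only mineralized cells were released with collagenase before trypsin, so the way the cells were detached cannot be told apart from the stage.

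Imprinted genes are transcribed mainly from the copy inherited from a single parent, and many of them set the size of the embryo and its tissues. Several form a network that is active in growing tissues of the newborn and is shut down as growth slows. H19, Meg3 and Rian are long noncoding RNAs made from the maternal copy, and Cdkn1c and, in most tissues, Grb10 are maternal as well. Dlk1, Peg3, Plagl1, Mest and Ndn are made from the paternal copy. The deposited values do not separate the parental copies, so imprinting itself was not measured here.

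The sequences below are those the later results refer to. H19 carries the hairpin of a microRNA, miR-675, in its exon, and its mature arms are given with the seed (bases 2 to 8, which pair with targets) in capitals, from RefSeq on GRCm38.p6.
miR-675-5p: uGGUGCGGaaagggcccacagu
miR-675-3p: cUGUAUGCccuaaccgcucagu
The arms lie on the reverse strand at chr7:142577112-142577133 and chr7:142577078-142577099, and their seeds differ from each other.

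The RefSeq starts used covered 8 of the 10 members, without H19 and Cdkn1c, so no window of H19 or Cdkn1c was searched. There were 12 windows in all, because Meg3, Grb10 and Mest have more than 1. The 250 bases before the start are printed for the 4 members that fell most (the first listed start of Grb10) and for Meg3, with matches to GGGGCCCC, a motif known for Plagl1, and to TGACGTCA, the cAMP response element, in capitals. Both motifs read the same on either strand and were searched in all windows.
Peg3, chr7:6730420-6730669, reverse strand: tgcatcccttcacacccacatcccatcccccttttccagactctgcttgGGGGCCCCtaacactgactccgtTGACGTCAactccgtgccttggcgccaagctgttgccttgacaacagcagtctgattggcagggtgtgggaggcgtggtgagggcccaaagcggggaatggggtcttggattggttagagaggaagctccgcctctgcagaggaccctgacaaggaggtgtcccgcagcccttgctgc
Ndn, chr7:62348027-62348276, forward strand: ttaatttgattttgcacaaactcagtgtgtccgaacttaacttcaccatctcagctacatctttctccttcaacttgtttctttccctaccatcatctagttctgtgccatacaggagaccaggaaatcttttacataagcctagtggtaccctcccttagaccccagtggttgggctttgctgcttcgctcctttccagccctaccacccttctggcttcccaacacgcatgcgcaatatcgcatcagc
Plagl1, chr10:13090582-13090831, forward strand: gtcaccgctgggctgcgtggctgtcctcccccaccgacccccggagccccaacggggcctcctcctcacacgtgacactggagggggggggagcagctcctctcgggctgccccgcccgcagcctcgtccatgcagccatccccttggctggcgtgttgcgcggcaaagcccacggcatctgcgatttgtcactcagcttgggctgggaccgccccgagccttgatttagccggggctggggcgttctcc
Grb10, chr11:12037421-12037670, reverse strand: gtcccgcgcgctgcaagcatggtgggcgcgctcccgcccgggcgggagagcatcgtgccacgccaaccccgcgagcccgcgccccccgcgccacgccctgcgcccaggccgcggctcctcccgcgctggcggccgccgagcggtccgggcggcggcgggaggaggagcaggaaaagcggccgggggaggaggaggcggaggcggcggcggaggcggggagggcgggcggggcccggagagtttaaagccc
Meg3, chr12:109540746-109540995, forward strand: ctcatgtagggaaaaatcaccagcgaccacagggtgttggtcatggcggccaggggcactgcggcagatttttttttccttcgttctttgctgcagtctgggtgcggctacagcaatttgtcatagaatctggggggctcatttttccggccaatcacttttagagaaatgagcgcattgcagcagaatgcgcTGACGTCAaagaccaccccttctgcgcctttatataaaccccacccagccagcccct
The window of Peg3 held both motifs, with GGGGCCCC ending 194 bases and TGACGTCA ending 171 bases before the start. Meg3 had 1 match to TGACGTCA, ending 50 bases before its start. No other member window held either motif. Of the 32851 windows of all RefSeq starts, 0.889% held GGGGCCCC and 1.55% held TGACGTCA. The windows also differed in CpG, the dinucleotide that DNA methylation marks in imprinted regions. Grb10 had 40 CpG in this window, more than 98.7% of all windows, Plagl1 had 19, Peg3 8 and Ndn 5, beside a median of 6. The window of the other Grb10 start had 8. A match is a description of the letters and says nothing of binding.

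At day 7, Peg3, Ndn, Plagl1, Grb10 and Mest were lower than at day 0 and H19 was higher at a limma adjusted p of 0.05 (Benjamini-Hochberg, all genes). Peg3 fell the most, from 26.9 ± 5.57 to 4.59 ± 0.721 RPKM (SD, n = 3 each), whereas H19 rose from 1846 ± 444 to 3395 ± 299 RPKM (SD, n = 3 each). Cdkn1c and Meg3 had lower means at day 7 but did not pass the threshold. Dlk1 was listed at 0 in all 9 libraries and Rian had 1 read in all, and neither was tested. Thus 5 of the 8 members tested fell, against 18.6% of the 12712 genes tested, and 1 of 8 rose, against 12.6% of them. The median log2 fold change of the 8 members was −0.61, beside −0.11 for all genes tested. RPKM divide the reads of a gene by its length and by the library's total, and CPM by the total alone. The test was run on log2(CPM + 0.5), in genes whose CPM averaged 1 or more, and log2 fold changes are on that scale, where changes of low genes come out too small. These shares of all genes depended on the fit. Of 3971 genes called with CPM as deposited, 40.3% were higher at day 7, and of 5454 called after median-of-ratios scaling, which moved the median of all genes to −0.01, 52.1% were. With that scaling 20.5% of the genes tested were lower and 22.4% higher, with 4 and 1 members. Without day 0 replicate 3, 36.8% were lower and 12.8% higher, with 6 and 1 members. Relative to the median of all genes, Peg3 lay at −2.42, Ndn at −1.28, Plagl1 at −0.74, Grb10 at −0.54, Mest at −0.46 and H19 at 1.02, and none of the 8 members changed direction in any alternative fit that was run. These were bulk samples, in which fewer cells of a type and less RNA per cell cannot be told apart.

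**Figure D1:**
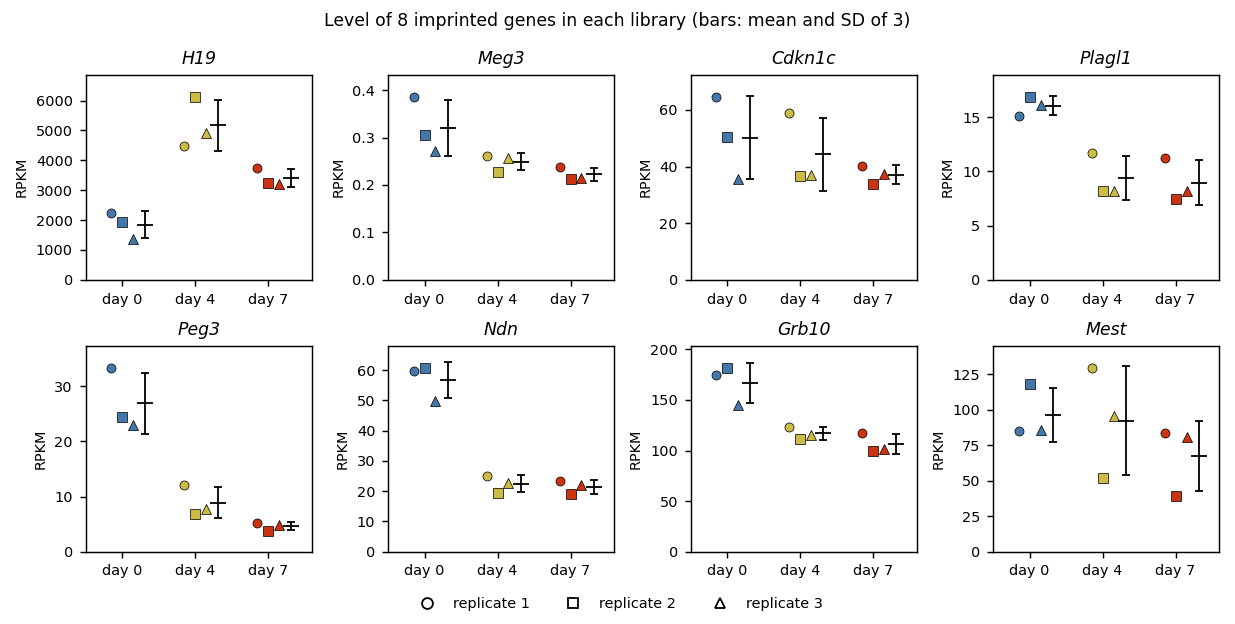
RPKM of the 8 members with reads in all libraries (linear axes from 0), by stage, with 1 symbol per replicate number and the mean with its SD beside each group of 3. The day 7 libraries of Peg3, at 3.78 to 5.17 RPKM, lay below all those of day 0, at 23.0 to 33.3, while H19 was highest at day 4, at 4479 to 6133 RPKM.

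Across the series, the reads counted on genes ranged from 7741204 (day 0 replicate 3) to 15622755 at days 0 and 7 and from 32820610 to 37306090 at day 4. Day 4 has separate tables and deeper libraries, and its values were set beside the others without a test. Osteoblast markers marked the stages, with a summed level of 11692 to 16400 CPM at day 0, 31966 to 35833 at day 4 and 39437 to 49931 at day 7, and 7 of the 8 were higher at day 7 in limma. The 6 macrophage markers all rose and summed to 61.8 to 105.8 CPM at day 0 and 120.9 to 157.8 at day 7. Of all genes tested, 12.6% were higher at day 7. The 5 chondrocyte markers, of which 3 fell and Acan rose, summed to 2713 CPM in day 0 replicate 1, 934 and 1042 in the other day 0 libraries and 265 to 754 at day 7. Muscle, adipocyte and endothelial markers summed to at most 4.42 CPM in any library, with 0, 2 and 1 of their genes without reads. Of 12 proliferation genes, 10 fell past the threshold, led by Mcm5, Rrm2, Plk1 and Mki67, beside 18.6% of all genes tested. Among the 10, Aurkb kept its call in 10 of 18 alternative fits. Cdk1 and Pcna did not pass (log2 fold changes −0.36 and −0.21). The summed level of the 12 genes was 736 to 1108 CPM at day 0, 423 to 564 at day 4 and 529 to 617 at day 7. The part of these cell type and proliferation differences in the changes of the imprinted genes was not tested.

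H19 (ENSMUSG00000000031) lies on chromosome 7 of GRCm38 at chr7:142575529-142578143 on the reverse strand. In the reads counted, it was the most abundant member at every stage. It had 2246, 1926 and 1368 RPKM in the day 0 libraries, 4479, 6133 and 4901 at day 4, and 3739, 3242 and 3205 at day 7. The 3 stages did not overlap, with day 4 highest and day 0 lowest. From day 0 to day 7 its log2 fold change was 0.91 (standard error 0.21, limma adjusted p = 0.000560). The exact two-sided permutation test gave p = 0.10, the smallest that 3 libraries against 3 allow. With all genes with reads in the fit, H19 no longer passed the threshold (limma adjusted p = 0.112), at the same fold change. H19 ranked from 16 to 28 among all genes by CPM at day 0, 4 to 5 at day 4 and 7 to 9 at day 7. It held 0.325% to 0.533% of all counted reads at day 0 and 1.06% to 1.46% at day 4. Of the reads on all members, 59.3% to 66.3% were on H19 at day 0, 83.9% to 90.8% at day 4 and 83.8% to 85.9% at day 7.

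The row of Mir675 itself had 0 reads in all 9 libraries, although the hairpin whose arms are printed above lies in an H19 exon. Reads there that also fall in H19 are ambiguous under the counting used, and libraries of this kind are not made to capture mature microRNAs, so miR-675 was not measured here. Small RNA genes on the opposite strand, Gm27483 and Gm27786, overlap H19 exons and also had 0 reads.

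Igf2, the growth factor gene beside H19 that shares enhancers with it and is made from the paternal copy, did not follow H19. Igf2 had 260, 258 and 228 RPKM at day 0, 289, 264 and 220 at day 4, and 229, 192 and 149 at day 7. Its stages overlapped, and the difference missed the threshold (log2 fold change −0.40, standard error 0.17, limma adjusted p = 0.0719). Igf2 missed it in 15 of 18 alternative fits as well and passed as lower in the others. The ratio of H19 to Igf2 in RPKM averaged 7.37 ± 1.32 before differentiation, then 20.3 ± 4.20 on day 4 and 18.2 ± 2.85 on day 7 (SD, n = 3 each). The ratios at day 0, up to 8.64, lay below all those at days 4 and 7, which began at 15.5. This ratio was not tested.

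Dlk1, Meg3 and Rian lie side by side on chromosome 12 in an imprinted cluster that ends at Dio3. Dlk1, a transmembrane protein of the Notch ligand family that holds back differentiation of progenitors, is at chr12:109452823-109463336 on the forward strand and was listed at 0 in all 9 libraries. Meg3 (chr12:109541001-109571726) and Rian (chr12:109603940-109661716) are on the same strand. Rian, which hosts many small nucleolar RNAs, had 1 read, in day 4 replicate 2. Rtl1, a paternally made retrotransposon-derived gene between them, was listed at 0.

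These zeros do not show that the genes were silent. In the tables, 43 genes of this stretch also have another Ensembl identifier that is outside the GENCODE M21 annotation, Dlk1 and Rtl1 among them, and 42 of the 43 had no reads. From the start of Dlk1 to the end of Rian, 40 of 42 genes had no reads, and the exceptions were Meg3 and Rian. From after Rian to Dio3, 14 of 53 had none. Most genes of both groups are genes of small RNAs. From Dlk1 to Rian, some genes without reads, such as Mir770 and Gm26945, have a single identifier. Over all chromosomes, 52 of 63 protein-coding symbols with such an extra identifier had no reads (82.5%), beside 4144 of 21478 protein-coding genes with a single identifier (19.3%). Among those listed at 0 were Ppp1ca and Ranbp1, which every dividing cell uses. The authors counted uniquely aligned reads. The part of the extra identifiers in the zeros was not tested. The level of Dlk1 is therefore not known from these values. Rian and Meg3 lie inside the stretch but have no extra identifier. For both, only the level of the reads that were counted is known.

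**Figure D2:**
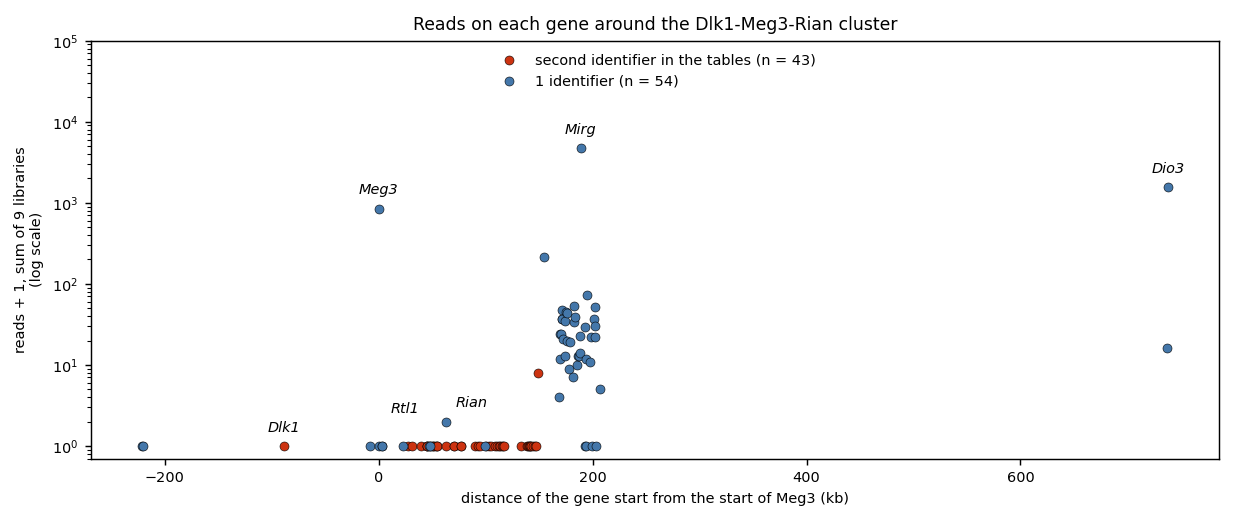
Reads summed over 9 libraries plus 1 (log scale) of each gene around the Dlk1-Meg3-Rian cluster, against the distance of its start from the start of Meg3 in kb, with genes that have an extra identifier in red. Dlk1 and Rtl1 sit at 0 reads and Rian at 1, while Meg3 has 840, Mirg 4739 and Dio3 1560.

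Meg3, a noncoding RNA known to restrain proliferation in several cell types, had 0.386, 0.305 and 0.271 RPKM at day 0, 0.261, 0.228 and 0.258 at day 4, and 0.239, 0.212 and 0.216 at day 7. These rest on 38 to 98 reads per library at day 0 and 41 to 61 at day 7. All 3 values of day 7 were lower than the lowest of day 0, but the difference missed the threshold (log2 fold change −0.47, standard error 0.22, limma adjusted p = 0.0981). Without day 0 replicate 3, the shallowest library, it was −0.57 and passed (limma adjusted p = 0.0209). Gm26906, antisense to Meg3 over 1228 of its exon bases, had 0 reads.

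Mirg, a maternal noncoding RNA farther along the cluster, had reads and fell. Its RPKM were 6.79, 5.31 and 3.56 at day 0, 4.13, 3.30 and 3.75 at day 4, and 1.89, 1.40 and 1.82 at day 7. Day 7 lay below the other stages, which overlapped (log2 fold change −1.54, standard error 0.19, limma adjusted p = 5.32e-09). Dio3, the enzyme that inactivates thyroid hormone at the end of the cluster, fell as well but overlapped between the stages (log2 fold change −0.64, limma adjusted p = 0.0200). For Meg3, Mirg and Dio3, day 0 replicate 1 was the highest of the 9 libraries, as it was for Peg3 and Cdkn1c, and it is also the library with the most chondrocyte marker reads. In the fit without that library Mirg and Peg3 still passed the threshold, while Dio3 did not (log2 fold change −0.40, limma adjusted p = 0.217). Dio3 was also lost without day 7 replicate 2 (limma adjusted p = 0.106) and with all genes with reads in the fit (limma adjusted p = 0.0788).

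Peg3 (chr7:6703892-6730431, reverse strand) encodes a zinc finger transcription factor known for roles in growth and maternal behaviour. Its RPKM were 33.3, 24.5 and 23.0 at day 0, 12.0, 6.87 and 7.78 at day 4, and 5.17, 3.78 and 4.81 at day 7. The 3 stages did not overlap, and the level at day 0 was 3.03-fold that at day 4 and 5.87-fold that at day 7. Peg3 had the largest fall of all members (log2 fold change −2.54, standard error 0.16, limma adjusted p = 3.55e-18). It passed in all 18 alternative fits, with adjusted p from 5.04e-92 to 4.50e-07. No annotated gene overlaps it. Zim1, a zinc finger gene beside Peg3 made from the maternal copy, also fell, from 4.18 ± 0.720 to 1.46 ± 0.374 RPKM (SD, n = 3 each, log2 fold change −1.45, limma adjusted p = 1.30e-07).

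Ndn (chr7:62346569-62350262, forward strand) encodes necdin, a growth suppressor of the MAGE family that binds E2F factors. It had 59.7, 60.7 and 49.9 RPKM at day 0, 25.1, 19.5 and 22.8 at day 4, and 23.4, 18.9 and 21.9 at day 7. Days 4 and 7 overlapped and both lay below day 0, so the drop was present by day 4. The log2 fold change from day 0 to day 7 was −1.39 (standard error 0.16, limma adjusted p = 5.87e-10), and it passed in all 18 alternative fits. Its RPKM rest on a model of 1652 bases, whereas the exons in GENCODE M21 cover 3694, so its rank against other genes depends on the model. Magel2, its neighbour of the same family, was listed at 0 in all libraries.

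Plagl1 (chr10:13060504-13131694, forward strand), a zinc finger transcription factor that arrests the cell cycle and regulates other imprinted genes, had a similar course. Its RPKM were 15.1, 16.9 and 16.1 at day 0, 11.7, 8.22 and 8.20 at day 4, and 11.3, 7.41 and 8.23 at day 7. All libraries of days 4 and 7 lay below those of day 0 and overlapped each other. The log2 fold change was −0.86 (standard error 0.16, limma adjusted p = 3.23e-05), and it passed in all 18 alternative fits. Replicate 1 was the highest at day 4 and at day 7. Gm27741, on the opposite strand, overlaps 38 of its exon bases and had 22 reads.

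Grb10 (chr11:11930508-12038683, reverse strand) encodes an adaptor that binds the insulin and IGF1 receptors and dampens their signals. With 174, 181 and 145 RPKM at day 0, 124, 112 and 115 at day 4, and 118, 99.7 and 101 at day 7, it ranked next to H19 among the members at each stage. Every library of days 4 and 7 was below every day 0 library. The log2 fold change was −0.65 (standard error 0.17, limma adjusted p = 0.00230), and it passed in all 18 alternative fits, with adjusted p up to 0.0371. Of the 4 genes whose signals Grb10 touches, Irs1 rose (log2 fold change 0.42, limma adjusted p = 0.0447) and the receptors Insr (−0.31) and Igf1r (−0.22) and the substrate Irs2 (0.01) did not pass. Irs1 had 18.3, 18.7 and 18.5 RPKM at day 0 and 31.6, 18.4 and 26.2 at day 7, so its stages overlapped. It kept its call in 10 of 18 alternative fits. Cobl, the neighbour of Grb10 that helps nucleate actin filaments, fell from 2.05 ± 0.411 to 0.639 ± 0.0321 RPKM (SD, n = 3 each, log2 fold change −1.57, limma adjusted p = 7.98e-09).

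Mest (chr6:30723547-30748465, forward strand), which encodes a protein of the α/β hydrolase family and is known from growing fat tissue, had the widest spread for its mean among the 8 members tested at days 4 and 7. Its RPKM were 85.0, 118 and 85.7 at day 0, 129, 52.1 and 95.8 at day 4, and 83.3, 39.1 and 80.4 at day 7. Replicate 2 was the lowest at days 4 and 7 and the highest at day 0, and all day 7 libraries lay below the lowest of day 0. The log2 fold change was −0.57 (standard error 0.19, limma adjusted p = 0.0167), and it passed in only 8 of 18 alternative fits. Without day 7 replicate 2 it was −0.22 (limma adjusted p = 0.477), without day 0 replicate 2 it was −0.42 (limma adjusted p = 0.0981) and without day 0 replicate 3 it was −0.65 (limma adjusted p = 0.0573). Copg2, on the opposite strand, shares 912 of the 3945 exon bases of Mest (23.1%) and missed the threshold (log2 fold change −0.13, limma adjusted p = 0.570), with a mean of 15.7 ± 2.14 RPKM before and 14.2 ± 0.802 after differentiation (SD, n = 3 each). The strand setting of the counting is not given in the sources used here. If strand was ignored, reads of this overlap were ambiguous and left out of both genes.

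Cdkn1c (chr7:143458339-143461050, reverse strand) encodes the imprinted member of the Cip/Kip family, which inhibits cyclin-dependent kinases (CDK) and stops the cell cycle. It had 64.7, 50.6 and 35.5 RPKM at day 0, 59.0, 36.7 and 37.2 at day 4, and 40.4, 33.7 and 37.4 at day 7. The stages overlapped, and the difference missed the threshold (log2 fold change −0.40, standard error 0.17, limma adjusted p = 0.0708, exact permutation p = 0.30). It passed in 4 of 18 alternative fits, among them the one without day 0 replicate 3, the lowest of that stage (log2 fold change −0.62, limma adjusted p = 0.00130). Gm44732, an antisense gene over 625 of its 2039 exon bases, is not in the tables. Kcnq1ot1, the paternal noncoding RNA of the same domain, moved by less than its error (log2 fold change −0.12, standard error 0.17, limma adjusted p = 0.631). Slc22a18, a transporter gene in that domain, fell from 1.71 ± 0.0916 to 0.492 ± 0.145 RPKM (SD, n = 3 each, log2 fold change −1.37, limma adjusted p = 4.05e-05). Phlda2, a placental growth gene nearby, stayed at 0.254 RPKM or below in every library.

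The 6 other CDK inhibitors, which are not imprinted, were set beside Cdkn1c, and 4 of them did not pass the threshold. Cdkn2a, which encodes proteins that arrest the cycle, had 10.9, 13.3 and 11.9 RPKM at day 0, 21.7, 17.0 and 19.4 at day 4, and 36.7, 29.7 and 30.9 at day 7. Its 3 stages did not overlap, and it rose (log2 fold change 1.40, standard error 0.17, limma adjusted p = 4.20e-09). Cdkn2c fell from 19.2 ± 4.95 to 10.3 ± 2.16 RPKM (SD, n = 3 each, log2 fold change −0.88, limma adjusted p = 0.000146). Cdkn1a, Cdkn2b, Cdkn1b and Cdkn2d had log2 fold changes of 0.33, 0.21, 0.09 and 0.02 and did not pass. Of these 6 genes, 1 rose and 1 fell, beside 12.6% and 18.6% of all genes tested. Their median log2 fold change was 0.15, beside −0.11 for all genes tested. With TMM or median-of-ratios scaling 3 of them rose, beside 22.2% and 22.4% of all genes tested.

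**Figure D3:**
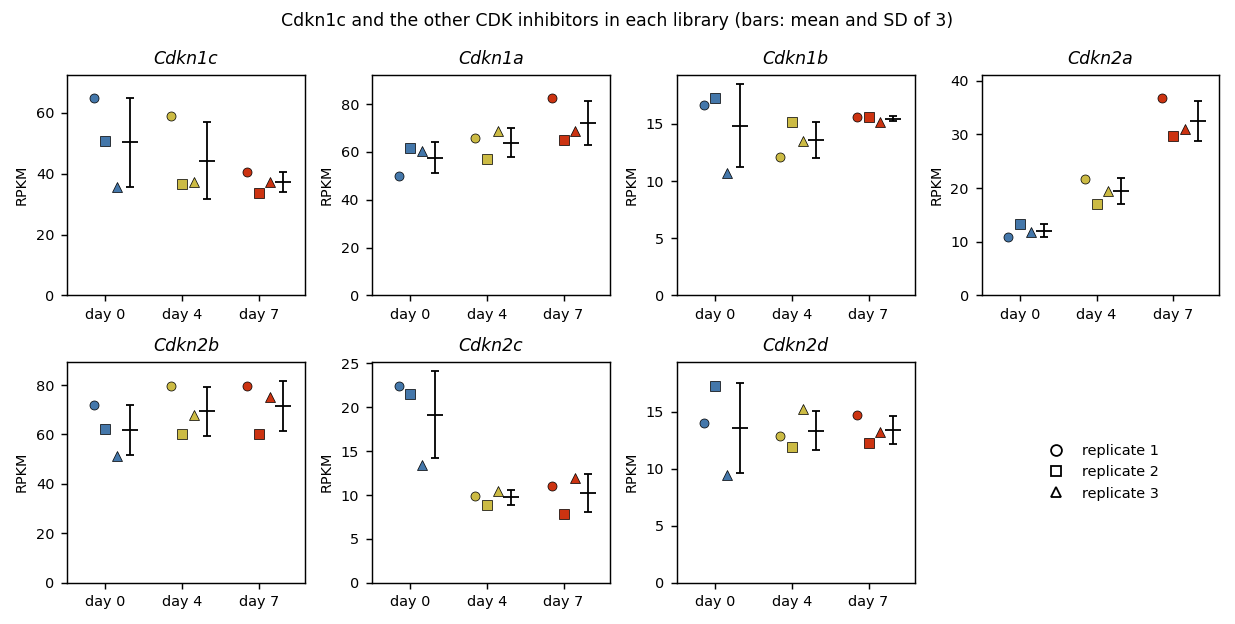
RPKM of Cdkn1c and of the 6 other CDK inhibitors by stage (linear axes from 0), with 1 symbol per replicate number and the mean with its SD beside each group of 3. Cdkn2a goes from 10.9 to 13.3 RPKM at day 0 up to 29.7 to 36.7 at day 7, while the stages of Cdkn1c overlap.

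At day 4, in libraries compared by direction only, every library of H19 was above every day 0 library, as in 21.4% of 12800 genes at the same filter. All day 4 libraries of Meg3, Peg3, Plagl1, Grb10 and Ndn were below those of day 0, as in 22.0% of those genes. From day 4 to day 7, H19 and Peg3 were lower in every library, as in 25.0% of 12782 genes, and no member was higher in every library, beside 13.7% of those genes. Libraries of days 4 and 7 with the same replicate number had correlated deviations (0.10, 0.28 and 0.33), so they were also compared within numbers. This pairing was inferred from these data. H19, Meg3, Peg3, Grb10, Mest and Ndn were lower at day 7 in all 3 numbers, as in 38.1% of the 12782 genes, and no member was higher in all 3, beside 22.1%. For Mest the log2 ratios were −0.63, −0.41 and −0.25, for Grb10 −0.07, −0.16 and −0.18, and for Ndn −0.10, −0.04 and −0.05. Cdkn1c and Plagl1 were lower in 2 of the 3 numbers. The mean of H19 at day 4 was 2.80-fold that at day 0 and 1.52-fold that at day 7. The order of the levels was led by H19, Grb10 and Mest at each stage. At day 0 these and Peg3, Plagl1 and Meg3 kept apart from their neighbours in the order, and Ndn and Cdkn1c overlapped. At day 4 Grb10 overlapped Mest, Mest overlapped Cdkn1c and Plagl1 overlapped Peg3, and at day 7 Mest overlapped Cdkn1c.

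For other imprinted genes, the lists held neighbours in the same clusters and genes from other clusters. Whether each of them is imprinted in these cells was not measured. Of 20 neighbours tested, 6 fell and 1 rose, beside 18.6% and 12.6% of all genes tested. Their median log2 fold change was −0.25. Klf14, a transcription factor gene near Mest, was the riser, from 0.208 ± 0.122 to 0.888 ± 0.168 RPKM (SD, n = 3 each, log2 fold change 1.55, limma adjusted p = 1.78e-05). Its values rest on 3, 11 and 6 reads at day 0 and 36, 24 and 51 at day 7. Of 22 genes of other clusters tested, 7 fell and 2 rose, beside the same shares of all genes. Their median was −0.16, beside −0.11 for all genes. Igf2r, which clears IGF2 and carries lysosomal enzymes, had 111, 94.0 and 93.8 RPKM at day 0, 53.6, 43.1 and 47.0 at day 4, and 50.7, 46.1 and 44.8 at day 7. Every library of days 4 and 7 was below every day 0 library (log2 fold change −1.08, standard error 0.16, limma adjusted p = 3.73e-07). Zdbf2 (−1.57, limma adjusted p = 8.29e-08), Nnat (−0.87, limma adjusted p = 0.00561) and Nap1l5 (−0.86, limma adjusted p = 0.0134) also fell. Nnat did not pass without day 7 replicate 3 (limma adjusted p = 0.0513). Nap1l5 did not pass with DESeq2 (adjusted p = 0.0883) or without day 0 replicate 2 (limma adjusted p = 0.0699) or day 7 replicate 2 (limma adjusted p = 0.144). H13, a signal peptide peptidase (0.55, limma adjusted p = 0.00410), and Ampd3, an AMP deaminase (0.57, limma adjusted p = 0.0477), rose, and Ampd3 kept its call in 8 of 17 alternative fits.

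**Figure D4:**
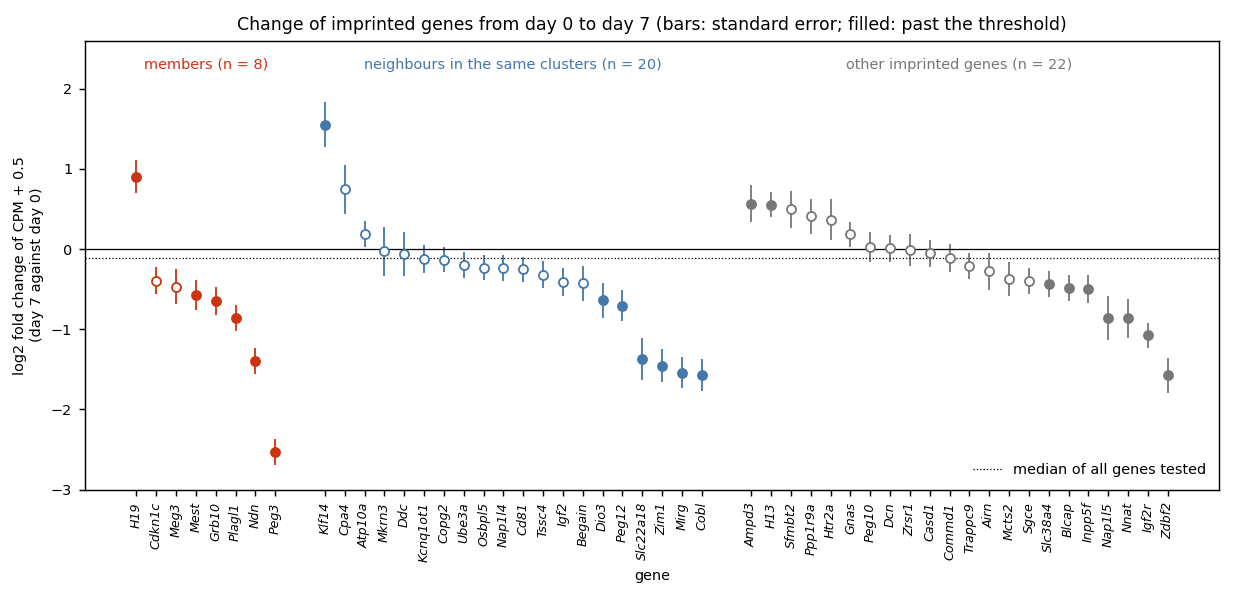
Log2 fold change of CPM + 0.5 from day 0 to day 7, with standard errors as bars. The listed genes that were tested are in 3 groups (8 members, 20 neighbours, 22 others). Filled symbols passed the threshold, the dotted line is the median of all genes tested (−0.11), and Peg3 (−2.54) lies lowest and Klf14 (1.55) highest.

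Some genes followed a member closely over the 9 libraries, by the root mean square difference of log2(CPM + 0.5) after each gene was centred, among the 10465 genes averaging 5 CPM or more. Nearest to H19 were Ifitm10 (0.129) and Slc27a1 (0.131), and nearest to Meg3 were Papolg (0.0442) and Cdk12 (0.0460). For Cdkn1c they were Zfp874a (0.130) and Zfp638 (0.146), and for Peg3 they were Pknox2 (0.170) and Alcam (0.194). For Plagl1 they were Itga11 (0.108) and Efna5 (0.134), and for Grb10 they were Pbrm1 (0.0237) and Prkacb (0.0500). For Ndn they were Zic1 (0.0939) and Hsph1 (0.0980). Mest had no close match, with Sorbs2 (0.236) and Ankrd29 (0.251) nearest. Depth and stage are shared by all genes, so these are descriptions.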

How the data were processed

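RNA-seq was performed on 3 libraries each of day 0, day 4 and day 7. The authors depleted ribosomal RNA, aligned reads with STAR 2.0.4b to GRCm38 (Ensembl release 76) and counted uniquely aligned, unambiguous reads with featureCounts. The deposited values are CPM and RPKM per gene. In each library 100% of the CPM were whole multiples of 1 read (within 0.01), so reads were recovered. Genes were joined by Ensembl identifier. Coordinates come from GENCODE M21.

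For day 7 against day 0, limma 3.58.1 was used (R 4.3.3, mean-variance trend, 42.9 prior against 4 residual degrees of freedom) on log2(CPM + 0.5) of the 12712 genes averaging 1 CPM or more. Alternatives were other pseudocounts, filters, scalings, edgeR 4.0.16, DESeq2 1.42.0, voomWithQualityWeights, a replicate block and each library left out. Named genes were the 10 members, the 4 largest rises and falls of each list, Igf2, Igf2r, Kcnq1ot1, Phlda2, Mirg, Rtl1, Magel2, the CDK inhibitors, overlapping genes and the 2 nearest patterns. Same-numbered libraries of days 4 and 7 had correlated deviations (0.10, 0.28 and 0.33 over 12782 genes), and each correlated best with its own number. No day 0 library did so with either stage. The pairing of days 4 and 7 by number was inferred from these values. Any other gene was picked once its values had been seen. The members and lists were chosen with earlier results of these data known. Of 124 list symbols, 5 matched no gene. The labels call the libraries separate samples without naming litters, so p-values rest on the spread between these samples. With 42.9 prior degrees of freedom, limma takes most of that spread from the trend over all genes, not from the gene itself.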

Additional observations from a re-analysis of the deposited data

How the results depend on the processing

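The balance of calls over all genes depended on scaling and on single libraries. The genes higher at day 7 were 40.3% of 3971 called as deposited, 52.1% of 5454 with median-of-ratios scaling, 51.8% of 5459 with TMM, 51.5% of 5468 with edgeR and 52.6% of 4910 with DESeq2 on the recovered reads, and median-of-ratios scaling moved the median over all genes from −0.11 to −0.01. voomWithQualityWeights called 6120 genes, and leaving out 1 library gave 2882 to 6330, the latter without day 0 replicate 3, with 25.8% higher without that library and 50.7% without day 0 replicate 2. Members lower at day 7 numbered 4 to 6 in all fits, and members higher 1, except 0 with all genes with reads. Mest gave adjusted p of 0.0691 to 0.292 with all genes with reads, other scalings, the RPKM table, edgeR, DESeq2 and voomWithQualityWeights (limma for all but edgeR and DESeq2). Cdkn1c passed with robust variances, DESeq2 and voomWithQualityWeights.

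Cluster neighbours higher at day 7 numbered 0 with a mean CPM of at least 5, 2 with TMM, median-of-ratios, robust variances, edgeR, DESeq2 or the replicate block, and 3 with voomWithQualityWeights, and 1 to 2 with 1 library left out. Neighbours lower numbered 5 to 12 with 1 library left out (12 without day 0 replicate 3). Other imprinted genes higher numbered 1 with pseudocount 0.1, all genes with reads, a mean CPM of at least 5, the RPKM table or the replicate block, 4 with median-of-ratios, TMM, edgeR or voomWithQualityWeights, and 1 to 2 with 1 library left out, and those lower numbered 3 to 9. CDK inhibitors higher numbered 3 with median-of-ratios, TMM, edgeR, DESeq2 or voomWithQualityWeights and 1 to 2 with 1 library left out. Over all genes tested, the share higher was 12.6% as deposited, 22.4% with median-of-ratios and 22.2% with TMM or edgeR. It was 20.3% with DESeq2 and 24.8% with voomWithQualityWeights, and 36.8% were lower without day 0 replicate 3. The causes were not tested.

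Around day 4, where there was no test, log2 ratios turned when 1 library was left out. For day 4 over day 0, Cdkn1c ranged from −0.45 to 0.041 (above 0 without day 0 replicate 1) and Mest from −0.38 to 0.22 (0.11 without day 0 replicate 2, 0.22 without day 4 replicate 2). For day 7 over day 4, Cdkn1c ranged from −0.37 to 0.0090 (above 0 without day 4 replicate 1), Plagl1 from −0.26 to 0.13 and Ndn from −0.16 to 0.020. Without day 7 replicate 2, Plagl1 was at 0.055 and Ndn at 0.014, and without day 4 replicate 1 at 0.13 and 0.020. Members with a higher mean at day 4 than at day 0 numbered 1 to 2, and at day 7 than at day 4, 0 to 3.

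Same-numbered libraries of day 0 and day 7 did not deviate together (correlations −0.02, −0.18 and −0.44), and not every library correlated best with its own number, so the number does not pair those stages. Within the numbers of days 4 and 7, a replicate block added after the data were seen, the 8 log2 ratios kept their sign and 0 members were higher on average. In the separate fit of day 7 against day 0 with a replicate block, 3413 genes passed and 5 members fell. Depth limits Meg3, at 38 to 98 reads in the day 0 libraries, and Rian. It also limits genes outside the members, such as Klf14, at 3, 11 and 6 reads at day 0. At day 7, Slc22a18 had 13, 6 and 16 reads, Nap1l5 17, 5 and 16, and Nnat 34, 15 and 21.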
